A study of Mus musculus with 2 samples.

Results

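A group of 7 named genes of cholesterol metabolism was examined in sensory neuron preparations from mouse dorsal root ganglia (DRGs). They were taken as every row of the deposited tables whose gene symbol was Hmgcs1, Sqle, Idi1, Fdft1, Dhcr7, Insig1 or Srebf2, which gave 8 of 35034 transcript rows and 7 of 24411 genes. The first 5 genes encode enzymes of cholesterol synthesis and the last 2 encode regulators. None of the 7 encodes a lipoprotein receptor, so the uptake of cholesterol was described from a separate list of genes.

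RNA-seq was performed on 2 libraries of DRG neurons from C57BL/6 mice (C57BL/6J in the study's methods) aged 6 to 8 weeks. In the alum library the mice were injected intraperitoneally with 50% alum in 200 µl of saline, and in the alum + KLH library with the same alum and 100 µg of keyhole limpet hemocyanin (KLH), a foreign protein that serves as antigen. Injections were given on days 0 and 14, and thoracic and lumbar DRGs were collected 14 days after the second injection, digested, enriched for neurons and depleted of B lymphocytes with magnetic beads. Each library was made from the pooled cells of 10 mice. The label of the control library reads both naïve and alum alone, and it was treated here as alum-injected, as the study's methods describe. With 1 library per group there were no replicates, so no value below has an error between mice and no test of immunization was possible.

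Cholesterol is built from acetyl-CoA by way of mevalonate, isoprene units, squalene and lanosterol. The transcription factor SREBP-2 turns on the genes of this pathway when sterols are scarce, while the Insig proteins hold its escort protein Scap in the endoplasmic reticulum when sterols are plentiful. In peripheral nerve, cholesterol is a major lipid of the myelin made by Schwann cells and of the membranes of neurons.

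Control by SREBP-2 is read from the DNA before the start of transcription, and so the promoters of both members that held a match to the sterol element, and that of Insig1 with an E-box, are shown. The sequences are those of RefSeq on the GRCm38.p6 build, the + strand, written 5′ to 3′. They cover the 250 bases before the start given with each promoter. This start differs from that of the measured transcript in GENCODE, a separate annotation. The GENCODE start lies inside the printed stretch for Srebf2 (chr15:82147181) and Insig1 (chr5:28071363). For Hmgcs1 the more abundant transcript starts after it (chr13:119690446). Capitals mark the sterol regulatory element TCACNCCAC in Hmgcs1 (chr13:119690101-119690350), its first part TCACNCCA in Srebf2 (chr15:82147019-82147268) and the palindromic E-box CACGTG in Insig1 (chr5:28071162-28071411).
Hmgcs1: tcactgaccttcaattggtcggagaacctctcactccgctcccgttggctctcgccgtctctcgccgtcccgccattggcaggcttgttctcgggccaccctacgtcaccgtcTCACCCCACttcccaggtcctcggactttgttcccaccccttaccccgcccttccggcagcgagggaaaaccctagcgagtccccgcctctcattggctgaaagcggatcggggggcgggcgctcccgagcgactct
Srebf2: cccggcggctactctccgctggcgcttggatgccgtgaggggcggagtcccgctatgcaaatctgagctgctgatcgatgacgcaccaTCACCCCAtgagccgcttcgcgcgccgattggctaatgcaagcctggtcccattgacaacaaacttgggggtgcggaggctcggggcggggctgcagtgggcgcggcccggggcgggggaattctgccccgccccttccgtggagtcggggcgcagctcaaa
Insig1: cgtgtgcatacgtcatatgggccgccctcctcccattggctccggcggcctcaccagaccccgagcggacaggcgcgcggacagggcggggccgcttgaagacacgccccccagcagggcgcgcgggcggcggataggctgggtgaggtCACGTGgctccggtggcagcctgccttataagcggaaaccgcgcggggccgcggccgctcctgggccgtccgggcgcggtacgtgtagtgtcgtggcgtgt

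Distances are to the start given with each promoter. The element in Hmgcs1 began 137 bases before that start, and the one in Srebf2 began 162 bases before its own. TCACNCCAC occurred in 1.24% and TCACNCCA in 4.36% of 32817 mouse promoter windows of 300 bases (250 before and 50 after the start), each searched on both strands. The shorter motif is contained in the longer, so Hmgcs1 matched both. The E-box in Insig1 began 101 bases before the start, and CACGTG occurred in 7.15% of all windows. CACGTG was also present in 1 of the 3 windows of Dhcr7 (chr7:143823149-143823448), beginning 164 bases before the start given with that window. This match lies within the first exon (chr7:143823167-143823540) of the measured Dhcr7 transcript. The same motif was in 2 of the 14 windows of the other synthesis enzymes described below (Hsd17b7 and Sc5d). A promoter window was at hand for 5 of the 7 members, and Dhcr7 had 3 of the 7 windows. No window of Insig1, Idi1 or Dhcr7 held either form of the sterol element, which says only that these letters are not in these windows.

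Elements of the cofactors NF-Y (CCAAT) and Sp1 (GGGCGG) were also counted on both strands. Hmgcs1 held 4 CCAAT and 3 GGGCGG matches, Srebf2 held 1 and 5, Insig1 held 1 and 3, and Idi1 held 2 and 1. The measured Idi1 transcript starts inside its window, and all of the Idi1 matches lie within its first exon (chr13:8885501-8885996). In Srebf2, the GGGCGG matches beginning 79, 52 and 34 bases before and 19 bases after the given start lie within the first exon of the measured transcript (chr15:82147181-82147490). The 3 windows of Dhcr7 held 2 and 3 (chr7:143829964-143830263), 0 and 1 (chr7:143822917-143823216), and 0 and 0 (chr7:143823149-143823448). The window with 2 and 3 lies after the first exon of the measured Dhcr7 transcript. CCAAT was present in 37.4% and GGGCGG in 35.6% of all windows. Of the 14 other synthesis enzymes reported below, 13 had a window, 14 windows in all. CCAAT and GGGCGG were each found in 12 of these 14 windows, TCACNCCA in 1 of them (Msmo1) and TCACNCCAC in 0. All of these matches are letters in reference sequence, and no binding was measured.

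The 7 members spanned a wide range of abundance in the alum library, and their order was the same in the alum + KLH library. Values are TPM, the number of transcripts of a gene among 1000000 transcripts of the library, which corrects for transcript length and so can be compared between genes. From highest to lowest the order was Hmgcs1, Idi1, Sqle, Insig1, Fdft1, Dhcr7 and Srebf2, and the highest was 64.3 times the lowest in the alum library and 69.0 times in the alum + KLH library. Each member was above 3 TPM, the level the study took as detectable, in both libraries. Together they summed to 2786 TPM with alum and 2788 TPM with alum + KLH, or 0.279% of each library.

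**Figure D1:**
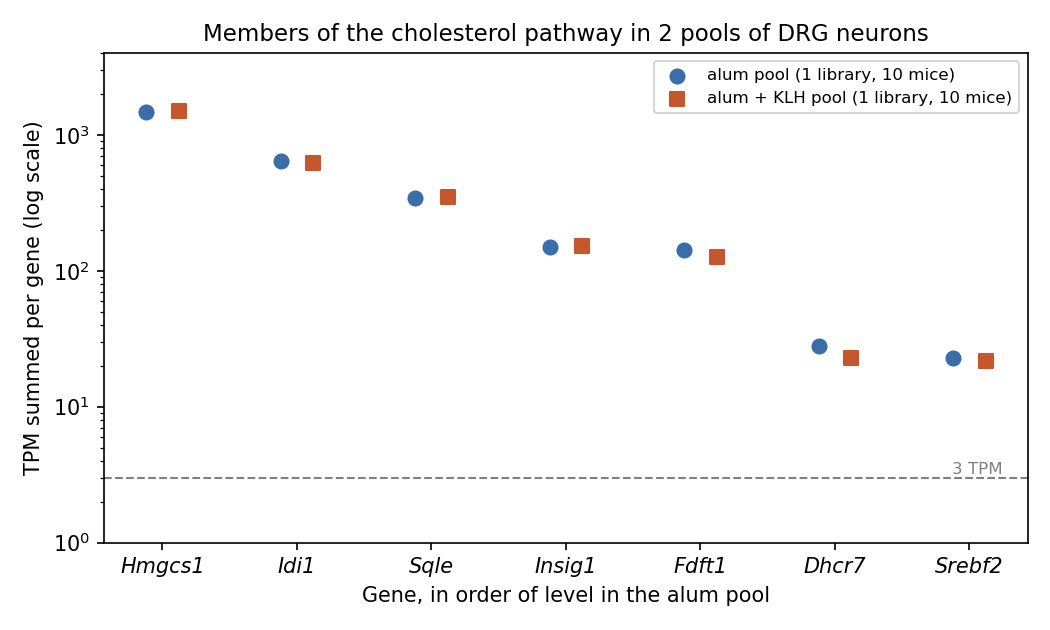
Level of each of the 7 members in TPM (log axis) in the alum library (circles) and the alum + KLH library (squares), each 1 library from 10 pooled mice, with no error bar because there are no replicates. The levels run from 1460.1 TPM for Hmgcs1 to 22.7 TPM for Srebf2 in the alum library, and for every gene the 2 points lie close together and above the dashed line at 3 TPM.

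Hmgcs1, the cytosolic synthase that makes HMG-CoA at the entry of the mevalonate pathway, was the most abundant member. It was measured at 1460.1 TPM in the alum library and 1488 TPM in the alum + KLH library. It ranked 61st and 57th of 24411 genes and made up 52.4% and 53.4% of the members' sum. Hmgcs1 lies at chr13:119690379-119708260 on the + strand in the GRCm38 annotation.

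Hmgcs1 was the one member with more than 1 transcript row. NM_001291439 was at 1286 TPM with alum and 1299 TPM with alum + KLH, or 88.1% and 87.3% of the gene. NM_145942 was at 174 and 190 TPM, or 11.9% and 12.7%. These transcripts have 10 and 11 exons and a coding sequence of the same length, 1560 bases. NM_145942 carries an exon of 59 bases (chr13:119694989-119695047) that the other lacks and that lies before the coding start, in the 5′ UTR. This transcript also ends later (119708260 against 119708082) and starts later (119690464 against 119690446) than NM_001291439. The split between the rows was estimated by kallisto, and which stretches of sequence it rested on was not examined.

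Idi1, the isomerase that interconverts both 5-carbon isoprene units, was the next most abundant member. It stood at 643 TPM with alum and 625 TPM with alum + KLH, 229th and 247th of all genes. Idi1 lies at chr13:8885501-8892451 on the + strand and has 5 exons. Of the 31-base words of its transcript, 32.0% also occurred in other annotated genes, and 0.3% in genes that have a row in these tables.

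Fdft1, squalene synthase, commits isoprene units to the sterol branch. Its level was 143 TPM with alum and 127 TPM with alum + KLH. The gene lies at chr14:63145150-63179578 on the − strand with 10 exons, and its 3′ end overlaps by 774 bases that of Ctsb (chr14:63122462-63145923), which lies on the + strand and encodes the lysosomal protease cathepsin B. Of the 31-base words of the Fdft1 transcript, 36.75% also occurred in other annotated genes, and 20.3% were shared with Ctsb, itself at 714 and 660 TPM. The library kit was stranded, but whether kallisto was run with strand is not given in the sources used here, and the Fdft1 values are uncertain to that extent.

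Sqle, squalene epoxidase, carries out the first oxygen-dependent step of the sterol branch. It was at 341 TPM in the alum library and 351 TPM in the alum + KLH library, above Fdft1 in both. Sqle lies at chr15:59315077-59331192 on the + strand with 11 exons, and it shared none of its 31-base words with another gene.

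Dhcr7, the reductase of 7-dehydrocholesterol at the end of the pathway, was the least abundant of the member enzymes. It was at 28.1 TPM with alum and 22.8 TPM with alum + KLH, close to the median of all detected genes, 24.2 and 23.5 TPM. The gene lies at chr7:143823145-143848410 on the + strand with 9 exons.

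Insig1, one of the Insig proteins that retain SREBP and itself a sterol-regulated gene, stood at 149 TPM with alum and 152 TPM with alum + KLH. It was 2.11 and 2.03 times its paralog Insig2, at 70.3 and 75.1 TPM. Its level was near that of Fdft1, with a ratio of 1.04 in the alum library and 1.20 in the alum + KLH library. Insig1 lies at chr5:28071363-28078662 on the + strand with 5 exons.

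Srebf2, which encodes SREBP-2, was the least abundant member, at 22.7 TPM with alum and 21.6 TPM with alum + KLH. It was 21.1 and 17.3 times its paralog Srebf1, at 1.1 and 1.2 TPM, below the 3 TPM level. Dhcr7 was 1.24 times Srebf2 with alum and 1.06 times with alum + KLH. The order of these neighbours, like that of Insig1 and Fdft1, cannot be set against a spread between mice. Srebf2 lies at chr15:82147181-82205379 on the + strand with 19 exons.

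The members were placed among the other enzymes of the route with 14 further synthesis genes. Along the pathway the levels were uneven. In the alum library they ran from 1.01 TPM for Mvd to 1460.1 TPM for Hmgcs1, and in the alum + KLH library from 0.769 to 1488 TPM for the same genes. Of the 19 enzymes reported, 11 were above 100 TPM in both libraries, and 2, the mevalonate kinase Mvk and the decarboxylase Mvd, were below 3 TPM in both.

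In the early steps, the thiolase Acat2 was at 215 TPM with alum and 195 TPM with alum + KLH. Mvk was at 2.05 and 1.65 TPM, so that Hmgcs1 stood 713 and 901 times above it. Phosphomevalonate kinase, Pmvk, was at 15.9 and 13.9 TPM, Mvd at 1.01 and 0.769 TPM, and farnesyl diphosphate synthase, Fdps, at 176 and 174 TPM. In the order of the reported enzymes, the members Hmgcs1 and Idi1 thus stood on either side of 3 kinase and decarboxylase genes that were each below 16 TPM. Pathway genes that are not reported here are left out of this order.

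Between squalene and the ring, lanosterol synthase, Lss, was at 20.6 TPM with alum and 20.0 TPM with alum + KLH, well below Fdft1 and Sqle. After lanosterol, the methyl oxidase Msmo1 was highest, at 631 and 660 TPM, followed by the desaturase Sc5d at 308 and 314 TPM, the demethylase Cyp51 at 182 and 179 TPM, Nsdhl at 149 and 140 TPM and Hsd17b7 at 103 and 110.0 TPM. The isomerase Ebp was at 20.0 and 22.3 TPM. The sterol C14 reductases Tm7sf2, at 13.1 and 10.9 TPM, and Lbr, at 12.6 and 13.9 TPM, were lowest.

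**Figure D2:**
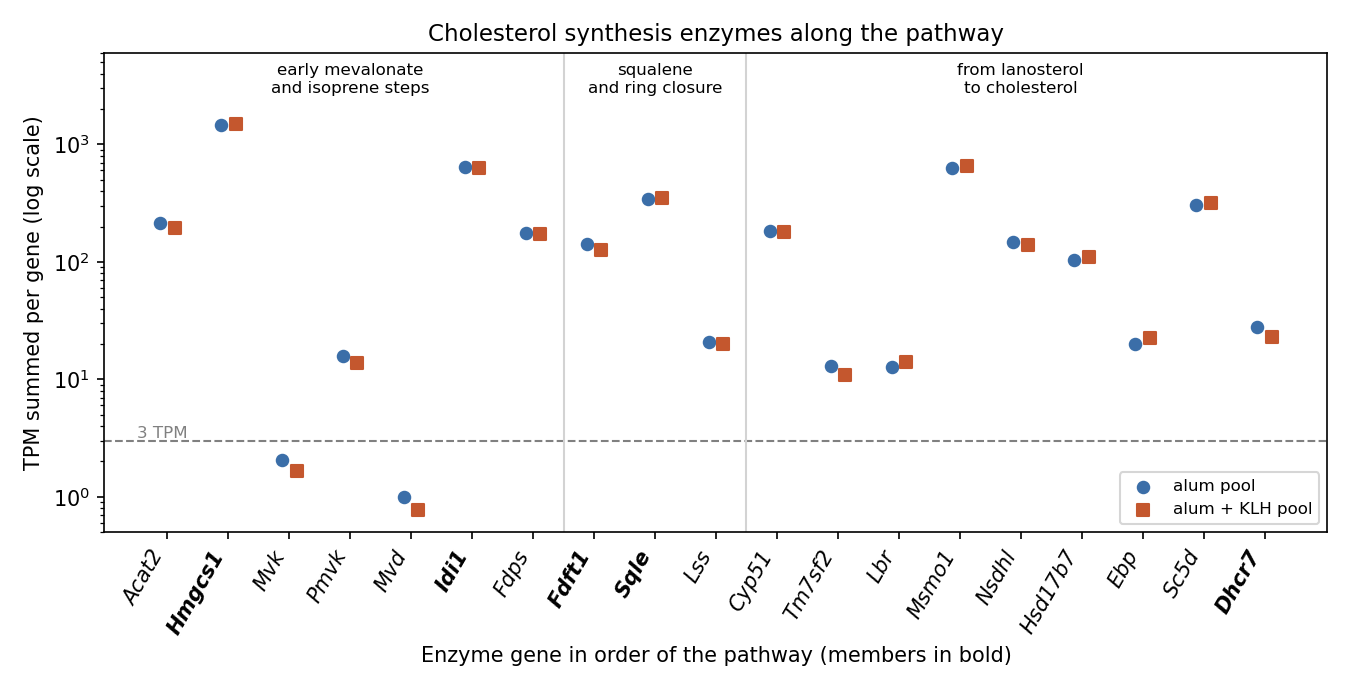
Level in TPM (log axis) of the 19 reported cholesterol synthesis enzymes in order of the pathway, with the 5 members in bold, in the alum (circles) and alum + KLH (squares) libraries. Levels differ by orders of magnitude between enzymes, with Hmgcs1, Idi1 and Msmo1 at the top and Mvk and Mvd below the dashed 3 TPM line, while the points of the 2 libraries lie close together for each gene.

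The GC content of the transcripts differed along with these levels. The 11 enzymes above 100 TPM had a median GC content of 45.8% (41.9% to 52.2%), and the 8 others of 52.8% (44.2% to 59.6%). Across the 19 enzymes, Spearman's rho between level and GC content was -0.72 with alum and -0.75 with alum + KLH. Over all 11504 detected genes with a known GC content it was -0.31 and -0.34, respectively. All points share the same libraries, and genes are not independent replicates. The part of GC content in the levels was not tested.

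The identity of the preparations was checked with marker lists. All 8 neuronal markers were above 3 TPM and summed to 16495 TPM with alum and 16307 TPM with alum + KLH. The Schwann cell markers summed to 2171 and 2131 TPM (5 of 8 above 3 TPM) and the satellite glia markers to 1381 and 1305 TPM (5 of 5). Sums were 77.8 and 78.4 TPM for fibroblast (2 of 4), 8.94 and 6.28 TPM for endothelial (1 of 4), 6.12 and 5.54 TPM for macrophage (0 of 6) and 0.754 and 0.234 TPM for B lymphocyte markers (0 of 4, Cd79b at 0 in both). Glial RNA was therefore present, and how much of each member's RNA came from glia was not tested. In such bulk samples fewer cells of a type and less RNA per cell cannot be told apart.

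A further question was whether the pathway differed between immunized and control mice. Differences are given as log2 of (TPM + 1) in alum + KLH over (TPM + 1) in alum, so that positive values mean higher with KLH. A ratio of 0.32 in size, which is 5 to 4 between the libraries, was used as a limit. No member passed it in either direction (Dhcr7 did when scaled to Hprt). Of the 11648 genes that passed 3 TPM in one or both libraries, 2.29% passed this limit upwards with alum + KLH, 5.39% passed it downwards and 1.64% were at least 2-fold apart. These shares were 267 genes higher against 628 lower, a split that became 191 against 1102 when both libraries were scaled to Hprt and 305 against 328 when ratios were centred on genes of like GC content.

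The 3 members Hmgcs1 (0.03), Sqle (0.04) and Insig1 (0.04), had ratios above 0, but relative to Hprt they were at -0.06, -0.04 and -0.05. Ratios above 0 were found for 43.6% of all genes tested. Over all genes, 5079 ratios were above 0 and 6569 below, against 2449 and 9198 relative to Hprt and 5756 and 5748 when centred on GC content, and the counts of each list below are to be read beside these. The other 4 members had ratios below 0, namely Idi1 (-0.04), Srebf2 (-0.07, but 0.11 when centred on GC content), Fdft1 (-0.16) and Dhcr7 (-0.29). The members' median was -0.04 and that of all genes tested was -0.02. Centred on GC content, both medians were at 0.00.

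To judge the size of these ratios, each was set beside the 500 genes closest to it in abundance. The ratios of Hmgcs1, Sqle, Idi1, Insig1 and Srebf2 were smaller than the standard deviation (SD) of their neighbours' ratios, and between 57.6% and 77.6% of the neighbours lay as far from 0. The ratio of Fdft1, 1.12-fold lower with alum + KLH, exceeded its neighbours' SD of 0.13, and 14.8% of neighbours lay as far from 0. Ctsb, with which it overlaps, had a ratio of -0.11.

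Dhcr7 had the largest difference among the members. It was 1.22-fold lower with alum + KLH, against a neighbours' SD of 0.19, and 5.2% of its neighbours lay as far from 0. Scaled to Hprt, its ratio was -0.37 and it passed the limit of 5 to 4, and centred on GC content it was -0.24. Without replicates, whether this difference exceeds the variation between mice is unknown.

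**Figure D3:**
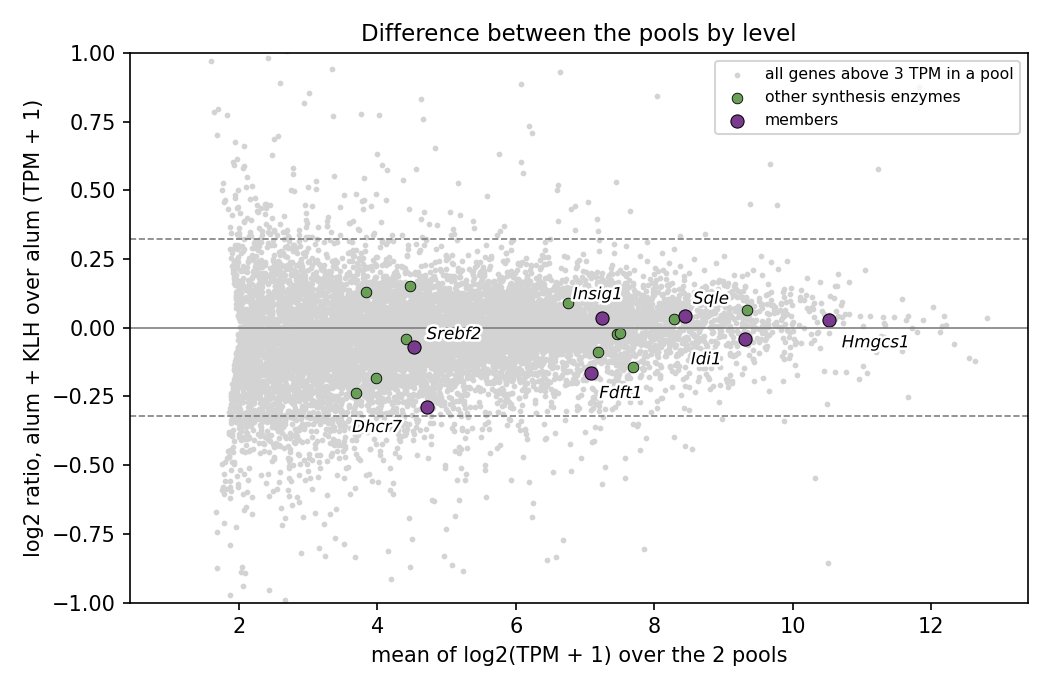
Log2 ratio of alum + KLH over alum (TPM + 1) against mean level on the log2 scale, for all 11648 genes above 3 TPM in a library (grey), the other synthesis enzymes (green) and the 7 members (purple). Dashed lines mark a ratio of 5 to 4 and 191 genes lie beyond the vertical range. The members lie inside the dashed lines (Dhcr7 passes the lower one when scaled to Hprt), with Dhcr7 at -0.29 nearest to the lower one.

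Of the 14 other synthesis enzymes reported, 12 were above 3 TPM. Of these, 5 had ratios above 0 and 7 below (3 and 9 relative to Hprt, 6 and 6 when centred on GC content), with a median of -0.02. The ratios ran from -0.24 for Tm7sf2, which was at -0.09 when centred on GC content, to 0.15 for Ebp.

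By stage of the route, the summed levels were 2514 and 2498 TPM in the 7 early enzymes, 504 and 498 TPM in the 3 around squalene and 1447 and 1474 TPM in the 9 after lanosterol, for alum and alum + KLH respectively.

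The regulation of SREBP and LXR, the sterol sensor that turns on efflux, was covered by 12 genes besides the members, of which 8 were above 3 TPM. Of these, 4 had ratios above 0 and 4 below (1 and 7 relative to Hprt, 2 and 6 when centred on GC content), and none passed the limit. The highest was Stard4, a sterol carrier, at 129 TPM with alum and 127 TPM with alum + KLH. Both LXR genes were below 3 TPM in both libraries and are not among the 8. Nr1h2 was at 1.13 and 0.971 TPM and Nr1h3 at 0.109 and 0.156 TPM, with alum and alum + KLH respectively.

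Uptake and lysosomal handling of cholesterol was covered by 9 genes, 6 of them above 3 TPM. Ratios were above 0 for 2 and below 0 for 4 (1 and 5 relative to Hprt, 3 and 3 when centred on GC content). The highest was Lipa, the lysosomal acid lipase that frees cholesterol from its esters, at 131 and 137 TPM. Scarb1, a receptor for high-density lipoprotein, was 1.32-fold lower with alum + KLH, at 4.08 TPM with alum and 2.86 TPM with alum + KLH. When centred on GC content its ratio of -0.40 became -0.25, inside the limit. At this low level the ratio was smaller than its neighbours' SD of 0.52.

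Of the 9 genes of efflux, storage and turnover, 7 were above 3 TPM and none of these passed the limit. Ratios were above 0 for 3 and below 0 for 4 (1 and 6 relative to Hprt, 4 and 3 when centred on GC content). The highest was Abca1, the exporter of cholesterol to apolipoproteins, at 75.5 and 78.8 TPM. All 9 genes of the isoprenoid branch were above 3 TPM. Of their ratios, 3 were above 0 and 6 below (2 and 7 relative to Hprt, 3 and 6 when centred on GC content). The highest was Fnta, a subunit of the farnesyl and geranylgeranyl transferases, at 157 and 164 TPM. None of the 9 passed the limit.

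Fatty acid synthesis, controlled by the related factor SREBP-1, was covered by 13 genes, all above 3 TPM. Ratios were above 0 for 2 and below 0 for 11 (1 and 12 relative to Hprt, 4 and 9 when centred on GC content), with a median of -0.09 that moved to -0.03 when centred on GC content. Fasn, fatty acid synthase, was 1.27-fold lower with alum + KLH, at 10.1 TPM with alum and 7.77 TPM with alum + KLH. Its ratio of -0.34 became -0.16, inside the limit, when centred on GC content. Scd2, a stearoyl-CoA desaturase, was highest at 1074 and 1037 TPM.

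Across these libraries the ratio followed the GC content of the transcripts. Over 11504 genes, Spearman's rho was -0.46 and Pearson's r was -0.19. The median ratio was 0.08 in 703 genes at or under 40% GC, 0.03 in 2497 genes up to 45%, 0.00 in 3429 genes up to 50%, -0.06 in 2963 genes up to 55%, -0.16 in 1676 genes up to 60% and -0.23 in 236 genes above 60%. Over the 62 detected members and pathway genes, rho was -0.68.

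The members followed the same pattern in part. Idi1 and Hmgcs1, at 41.9% and 43.4% GC, and Insig1 and Sqle, at 48.2% and 49.3%, had ratios near 0, whereas Fdft1 and Dhcr7 were at 51.8% and 52.8%. Srebf2 had the highest GC content, 57.9%, and its ratio of -0.07 lay above the median of -0.18 of the 500 genes closest to it in GC content. Fdft1 and Dhcr7 were at -0.12 and -0.24 when centred in this way. Whether GC content set these differences was not tested.

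**Figure D4:**
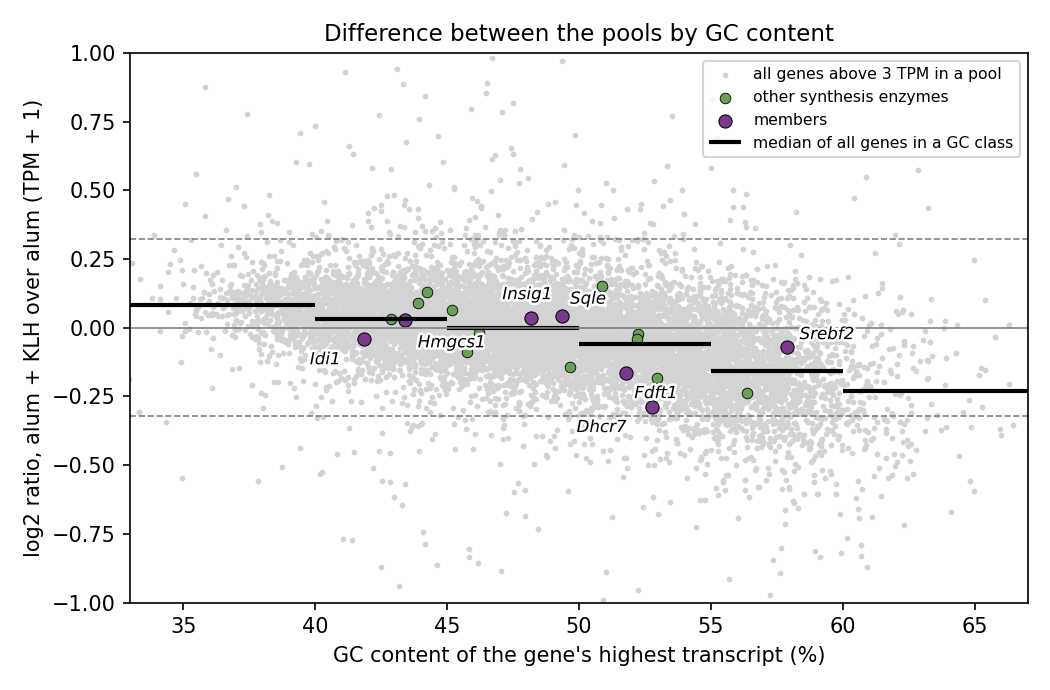
Log2 ratio of alum + KLH over alum (TPM + 1) against transcript GC content for all detected genes (grey), the other synthesis enzymes (green) and the 7 members (purple). Black bars are medians of GC classes and fall from 0.08 to -0.23, dashed lines mark a ratio of 5 to 4, and 22 genes outside 33% to 67% GC and those beyond the vertical range are not drawn. Dhcr7 and Fdft1 lie below the median of their class and Srebf2 lies above it.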

How the data were processed

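The authors prepared stranded mRNA libraries, trimmed reads with cutadapt and quantified them with kallisto against the annotated mm10 transcriptome. Tool versions are not given in the sources used here. They deposited TPM for each RefSeq transcript, scaled by the authors to 1000000 per library. TPM keeps no depth, so the depth is unknown from the files and no interval or floor was computed. Of 35034 rows, 9779 (alum) and 9683 (alum + KLH) were at 0, and 11454 and 11302 genes were above 3 TPM. The study reported larger numbers of detected genes at the same level, and the reason for the difference was not examined.

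Rows were summed per gene symbol, and ratios used a pseudocount of 1 TPM. Genes above 3 TPM in at least one library were compared. Positions, exons, GC content and shared 31-base words were read from GENCODE M21 (GRCm38), matched through RefSeq accessions, and promoters from RefSeq (GRCm38.p6). Calculations used Python 3.11.15, pandas 2.3.3, scipy 1.17.1 and numpy 2.4.6. They were tested on simulated data. The members and lists were chosen with earlier results of these data known. All members were named, with each of 14 further synthesis enzymes and, of each other list, the highest gene and detected genes past the limit of 5 to 4. Insig2, Srebf1, Nr1h2, Nr1h3, Ctsb, Cd79b and Hprt were added after their values were seen. Some genes of the pathway are not reported here, and counts over the enzymes leave them out. Alternatives were other pseudocounts, detection levels, scalings and row choices, and centring on GC content, which was added after seeing the data.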

Additional observations from a re-analysis of the deposited data

How the results depend on the processing

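Results were recomputed under 10 other settings, which gave 108 values for 13 results. Relative to Hprt (989 TPM with alum and 1049 TPM with alum + KLH), the number of members lower by 5 to 4 or more moved from 0 to 1, which was Dhcr7. The 107 other values moved by less than the spread of neighbouring genes or, for counts, not past 1.5 times. Signs changed in 8 cases, all of values near 0 or of Srebf2. These were Hmgcs1, Sqle and Insig1 relative to Hprt, Srebf2 and the medians of the members and of all genes on centring on GC content, and the medians of all genes and of the other synthesis enzymes on median rescaling. The members' median ranged from -0.13 to 0.00 and that of all genes from -0.10 to 0.00. No paired analysis was possible because each group has 1 library, and for the same reason no replicate could be left out. Depth could not be weighed, since TPM holds no counts.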
